A study of Homo sapiens with 10 samples.

Results

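The forkhead (FOX) transcription factors were examined as 39 genes in 18 subfamilies, named by the letter after FOX. Their peaks were the rows of the deposited peak list whose gene identifier belonged to one of these genes, and 32 of the 39 genes had a row. Together they held 210 of the 161934 peaks in the list. Open chromatin had been profiled by ATAC-seq, a method that uses the Tn5 transposase to insert sequencing adapters where DNA is accessible, in MDA-MB-231, a human cell line from a triple-negative breast cancer. The 10 libraries comprised 5 from control cells and 5 from ARID1A knockout cells, ARID1A being part of SWI/SNF, a complex that moves nucleosomes. Whether replicates were separate cultures, and how many clones carried the knockout, the labels leave unsaid. The list analysed here merges all libraries and holds 0 columns with a value per library. Each value below therefore describes the study's peaks as a whole: knockout and control could not be compared, no value has a replicate error, and the depth behind each peak is unknown.

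Forkhead factors share a winged-helix domain that binds DNA. FOXA proteins are pioneer factors that open chromatin for steroid receptors in breast epithelium, FOXO proteins are held in the cytoplasm by AKT phosphorylation and otherwise drive arrest and stress genes, and FOXM1 drives genes of mitosis. FOXC1 and FOXQ1 are known markers of basal-like breast cancer and of mesenchymal change, whereas many other members, such as FOXB1, FOXE1, FOXI1 and FOXL2, act mainly in particular embryonic or adult tissues.

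A start peak is a peak within 1000 bases of a gene's start. By position, that is, at the outermost annotated start whichever gene the list names for the peak, 24 of the 39 forkhead genes had one. The corresponding share was 74.1% over the 18752 of 19974 protein-coding genes with a known strand, against 61.5% of the forkhead genes. Genes with neither a RefSeq promoter entry nor a paired row in the list had no known strand. They were left out here and in the other shares by position. FOXM1 and FOXH1 took their strand from distances to listed flanking genes, a step made for members only, so the shares are not strictly alike. All members of the A, J, K, M, O, P, Q, R and S subfamilies had a start peak, and no member of the B, E, F, H, I and L subfamilies did. The N subfamily had 3 of 4, the D subfamily 2 of 4 and the C subfamily 1 of 2. A peak covered the start itself in 22 members (56.4%), beside 65.0% of all protein-coding genes. FOXN2 and FOXS1 had a start peak without being covered, at 376 and 783 bases from the start, the latter being the farthest inside the limit. The nearest peak just outside it lay 1043 bases from the start of FOXF1. The share depended on the limit, since within 3000 bases of the start by position 35 of 39 members (89.7%) had a peak, beside 82.1% of all protein-coding genes.

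**Figure D1:**
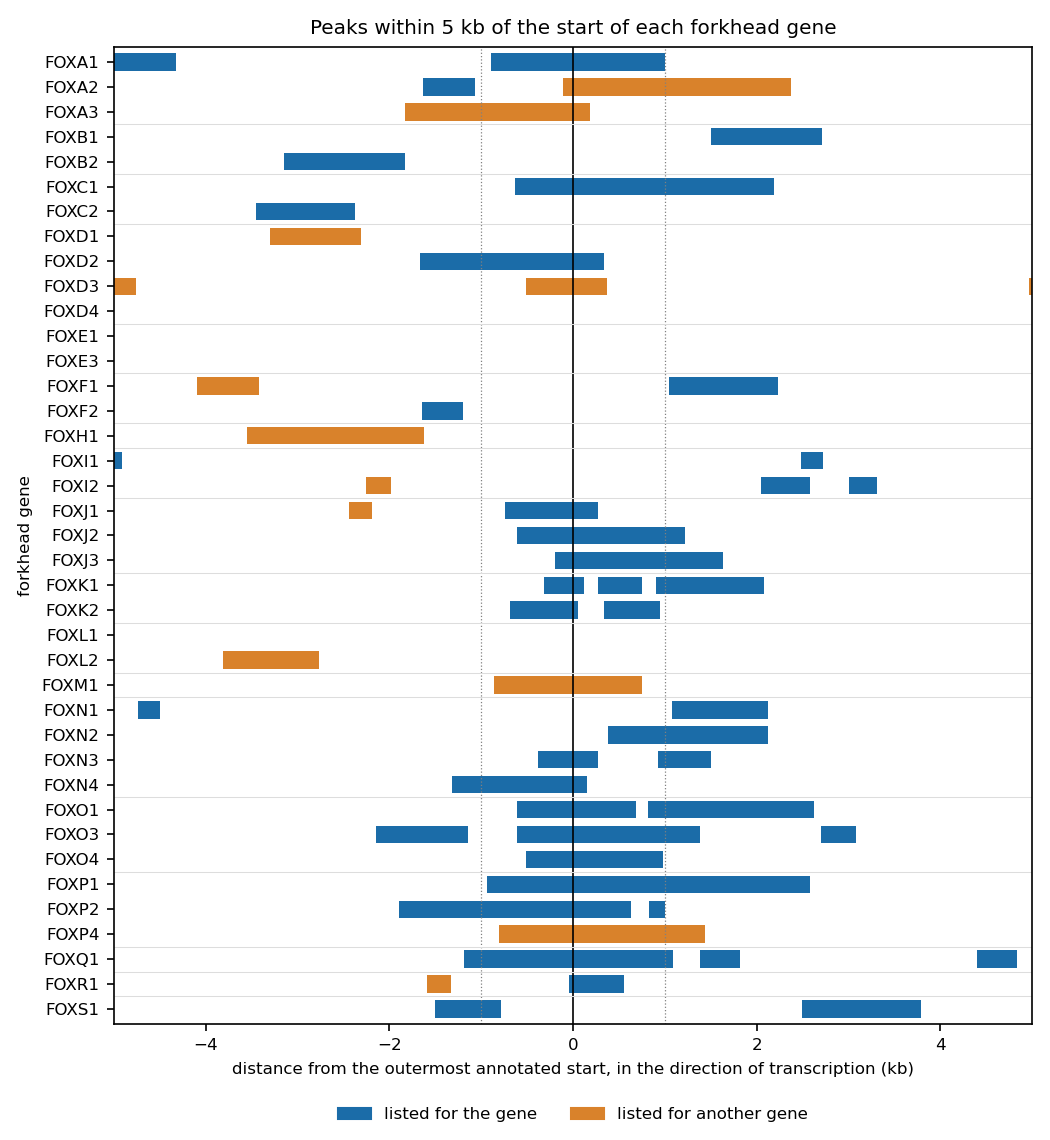
Peaks within 5 kb of each forkhead gene's outermost start (x axis, distance in kb in the direction of transcription; 1 line per gene, ordered by name). Blue bars are peaks listed for that gene, orange bars are peaks listed for another gene, and dotted lines mark 1 kb; 22 members have a peak over the start, while FOXD4, FOXE1, FOXE3 and FOXL1 have none in the window.

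Sequence around the starts is shown for the members that illustrate how peaks and base composition were combined. RefSeq (GRCh38.p14, the same build as hg38) holds 40 promoter windows, each running from 250 bases before to 50 bases after a start, for 29 of the 39 members. In the next 3 sequences capitals mark CpG dinucleotides. FOXC1 (chr6:1609665-1609964, plus strand) lay wholly inside its start peak and held 40 CpG. FOXE1, a thyroid factor (chr9:97852976-97853275, plus strand), held 32 CpG and no peak. The inner start of FOXP2 (chr7:114414565-114414864, plus strand) lay wholly inside a 1584-base peak and held 1 CpG.
FOXC1: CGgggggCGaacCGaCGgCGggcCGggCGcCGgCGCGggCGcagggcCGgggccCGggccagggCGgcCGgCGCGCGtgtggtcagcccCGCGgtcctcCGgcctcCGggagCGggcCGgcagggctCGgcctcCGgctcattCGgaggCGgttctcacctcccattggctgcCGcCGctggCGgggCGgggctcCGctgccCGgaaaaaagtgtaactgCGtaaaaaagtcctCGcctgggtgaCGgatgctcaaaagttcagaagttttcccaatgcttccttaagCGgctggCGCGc
FOXE1: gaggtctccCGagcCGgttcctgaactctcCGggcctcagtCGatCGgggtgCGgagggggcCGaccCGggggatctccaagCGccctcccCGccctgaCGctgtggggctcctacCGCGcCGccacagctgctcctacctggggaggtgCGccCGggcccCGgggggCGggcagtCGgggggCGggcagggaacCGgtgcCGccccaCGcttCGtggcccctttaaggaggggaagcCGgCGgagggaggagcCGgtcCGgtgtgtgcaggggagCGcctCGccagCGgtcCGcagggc
FOXP2: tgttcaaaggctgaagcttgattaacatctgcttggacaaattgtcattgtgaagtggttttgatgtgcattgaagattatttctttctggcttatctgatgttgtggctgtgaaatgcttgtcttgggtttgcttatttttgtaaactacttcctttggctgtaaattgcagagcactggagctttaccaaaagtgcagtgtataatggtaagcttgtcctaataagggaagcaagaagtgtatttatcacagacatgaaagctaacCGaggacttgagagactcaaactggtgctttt

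In the next pair, which shows where peaks ended within a window, capitals mark bases inside a peak. FOXR1, a little-studied member (chr11:118971511-118971810, plus strand), had 94 of its 300 bases in the start peak, from just before the start onwards. An inner start of FOXO3 (chr6:108588523-108588822, plus strand) had a 181-base peak that lay entirely within the window.
FOXR1: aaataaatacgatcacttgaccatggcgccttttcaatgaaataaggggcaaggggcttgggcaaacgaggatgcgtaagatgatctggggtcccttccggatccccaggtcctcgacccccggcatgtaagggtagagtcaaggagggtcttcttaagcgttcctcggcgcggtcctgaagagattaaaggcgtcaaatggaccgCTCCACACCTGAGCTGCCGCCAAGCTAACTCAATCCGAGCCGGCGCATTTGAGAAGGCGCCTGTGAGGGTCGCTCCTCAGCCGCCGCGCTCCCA
FOXO3: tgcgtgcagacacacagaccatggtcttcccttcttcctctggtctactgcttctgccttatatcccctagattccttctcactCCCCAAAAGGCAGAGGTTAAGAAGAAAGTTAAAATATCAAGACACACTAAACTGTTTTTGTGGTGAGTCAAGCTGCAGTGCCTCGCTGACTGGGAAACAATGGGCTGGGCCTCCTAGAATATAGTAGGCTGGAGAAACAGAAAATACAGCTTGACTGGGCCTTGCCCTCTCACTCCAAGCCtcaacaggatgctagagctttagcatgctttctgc

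FOXO4 (chrX:71095601-71095900, plus strand) is shown because its window, wholly inside the start peak, held the forkhead motif GTAAACA, in capitals, 23 bases past the start.
FOXO4: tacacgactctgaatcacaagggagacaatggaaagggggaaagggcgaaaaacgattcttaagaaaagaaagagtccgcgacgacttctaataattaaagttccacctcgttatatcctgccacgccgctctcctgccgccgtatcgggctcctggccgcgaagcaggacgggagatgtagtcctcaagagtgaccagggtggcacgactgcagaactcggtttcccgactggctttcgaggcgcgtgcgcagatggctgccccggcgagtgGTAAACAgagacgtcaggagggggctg

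Of the 40 forkhead windows, 25 (62.5%) met a peak, and of 22132 windows of all protein-coding genes 66.6% did. The median GC content was 74.3% in forkhead windows with a peak and 59.7% in those without, beside 65.3% and 52.7% over all protein-coding windows. The median number of CpG dinucleotides was 37 in forkhead windows with a peak and 16 in those without, and over all protein-coding windows 26 and 6. The 25 windows with a peak came from 19 genes and the 15 without from 12, and windows of 1 gene are not independent. Those without a peak included inner starts of FOXP1 and FOXP2, with GC contents of 36.3% to 54.0% and 2 to 7 CpG. Inner starts with a peak ranged from 38.7% GC at FOXP2 to 78.3% at FOXJ3. The part of inner starts in the medians was not tested. FOXE1 was not the only CpG-rich window without a peak, since FOXL2 held 28, FOXF2 26 and FOXI2 24 CpG. The forkhead motif GTAAACA, searched on both strands as GTAAACA or TGTTTAC, occurred in 2 of the 40 windows (5.0%), in FOXO4 and in an inner start of FOXP1 without a peak; 2.85% of all protein-coding windows held it. The AP-1 motif TGACTCA or TGAGTCA occurred in 1 window (2.5%), the inner start of FOXO3 shown above, at 103 bases before the start and inside the 181-base peak, beside 4.01% of all windows. The GC box GGGCGG or CCGCCC was in 70.0% of forkhead windows and 56.3% of all windows. A TATA box, TATAAA or TTTATA, was found in FOXA3 alone among the 40 windows (2.5%), and in 9.46% of all windows. These motifs do not overlap one another in letters, and a match describes the sequence only.

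Start peaks were long in several members. Their length, taken as the longest by position, had a median of 1817 bases over 24 forkhead genes and 1257 bases over 13887 protein-coding genes. A length of 1000 bases or more was reached by 19 of 24 (79.2%), beside 72.1% of all protein-coding genes with a start peak. A length of 2000 bases or more was reached by 8 of 24 (33.3%), beside 8.25%. The 8 include FOXA2, FOXA3 and FOXP4, whose peaks were listed for other genes. Both shares count such peaks, since both are by position. Measured from the start, the covering peak reached a median of 661 bases upstream and 719.5 bases downstream in forkhead genes, beside 546 and 656 bases over all protein-coding genes.

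The 8 longest belonged to 5 subfamilies. FOXP1, a repressor with roles in B cells, heart and lung, had the longest, 3515 bases (chr3:71581400-71584914). FOXC1 followed with 2819 bases (chr6:1609282-1612100), and this was the only peak listed for it. FOXP2, known for its role in speech and language, had 2530 bases (chr7:114084427-114086956) and a second peak of 169 bases just past it. FOXA2, an endoderm factor, had 2488 bases (chr20:22583114-22585601), nearly all of it inside the gene. FOXQ1 had 2282 bases (chr6:1310908-1313189). FOXP4 had 2251 bases (chr6:41545570-41547820), FOXA3, a liver factor, 2018 bases (chr19:45862492-45864509) and FOXD2 2013 bases (chr1:47436374-47438386).

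Start peak length also varied within subfamilies. The 3 FOXO genes had 1995 bases at FOXO3, 1812 at FOXO1 and 1496 at FOXO4. FOXO1 carried a second start peak of 1306 bases, the one that covered the start. Among the J genes, FOXJ3 had 1834 bases, FOXJ2 1822 and FOXJ1, the regulator of motile cilia, 1013. FOXA1, the pioneer factor of luminal breast cells, had 1890 bases (chr14:37594251-37596140). The peaks over the starts of FOXA2 and FOXA3 were longer but were listed for other genes. That of FOXA3 reached 1834 bases upstream of the start and 183 downstream. FOXK1 and FOXK2, repressors of autophagy and regulators of metabolism, had start regions broken into pieces: 437, 482 and 1183 bases at FOXK1, with only the shortest over the start, and 740 and 613 bases at FOXK2. In the N subfamily FOXN2 had 1753 bases, FOXN4, a retinal factor, 1469, and FOXN3, a checkpoint repressor, 658 with a second piece of 569. FOXM1 had 1614 bases, FOXD3 887, FOXS1 717 and FOXR1, the shortest, 597.

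**Figure D2:**
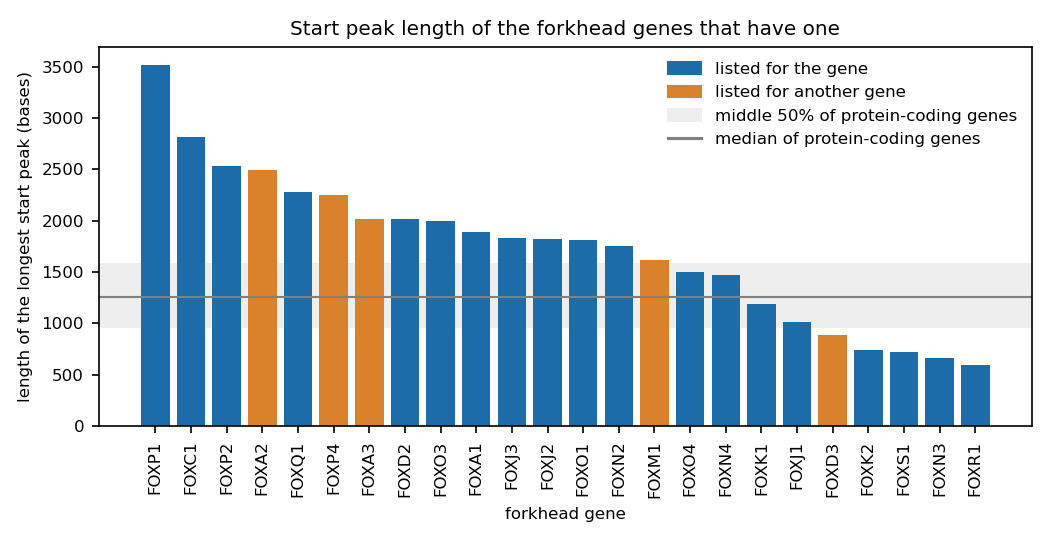
Length in bases of the longest start peak by position (y axis) for the 24 forkhead genes that have one (x axis). The grey line and band are the median, 1257 bases, and the middle 50% of protein-coding genes; orange bars are peaks listed for another gene, and 15 of the 24 bars stand above the band.

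The gene named by the list decided part of this picture. By the listed gene only 20 of 39 members (51.3%) had a start peak, beside 68.4% of 19974 protein-coding genes. Genes with no paired row in the list counted as having none, and 16205 of the 19974 had a paired row. Here the distance was taken to the start of the listed transcript, which can be an inner start. Within 3000 bases it was 29 of 39 (74.4%), beside 73.3%. Among genes with any row the figures, at 1000 bases, were 20 of 32 (62.5%) and 84.3%. At 4 members the peak over the start was listed for a neighbour. That of FOXA2 went to a non-coding gene whose span matches LINC00261, that of FOXA3 to SYMPK, that of FOXD3 to ENSG00000230798, an identifier with no paired symbol, and that of FOXM1 (chr12:2876426-2878039) to TULP3. FOXP4 was a further case: its 2251-base peak was listed for the antisense gene FOXP4-AS1, and the start peaks listed for FOXP4 itself, 262 and 601 bases long, lay inside the gene. Which of these genes such a peak belongs to cannot be told apart from positions alone.

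The 15 members without a start peak by position were FOXB1, FOXB2, FOXC2, FOXD1, FOXD4, FOXE1, FOXE3, FOXF1, FOXF2, FOXH1, FOXI1, FOXI2, FOXL1, FOXL2 and FOXN1. Of these, 11 (73.3%) had a peak between 1000 and 3000 bases from the start, beside 31.0% of the 4865 protein-coding genes without a start peak. The nearest peak was upstream in 7 and inside or downstream in 4, and its median length was 1049 bases. At FOXF1, a mesenchymal factor of gut and lung, a 1190-base peak began 1043 bases past the start, within the gene. FOXN1, the factor of thymic epithelium, had a 1038-base peak 1082 bases past the start. FOXF2 had a 440-base peak 1203 bases upstream. FOXB1 and FOXB2, factors of the developing brain, had peaks of 1205 bases at 1507 past the start and of 1311 bases at 1835 upstream. FOXC2, a lymphatic and mesenchymal factor, had 1083 bases at 2375 upstream.

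FOXI1, a factor of ionocytes, had a 250-base peak at 2479 bases and at FOXI2 a 272-base peak lay at 1984. The nearest peaks of FOXI2, FOXH1, FOXD1 and FOXL2 were listed for other genes. FOXH1, the SMAD partner of nodal signalling, had a 1926-base peak 1623 bases away, listed for PPP1R16A. FOXD1, a kidney stroma factor, had 991 bases at 2309, and FOXL2, the ovarian granulosa factor, 1049 bases at 2767, listed for its divergent neighbour FOXL2NB. In 4 members no peak lay within 3000 bases: the gap was 5971 bases at FOXL1, 6488 at FOXE1, 8063 at FOXE3, a lens factor, and 8443 at FOXD4. FOXD4 has near-identical copies elsewhere in the genome, and the handling of reads that map to several places is not given in the sources used here, so its empty start is uncertain.

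Presence of a start peak went with gene length. Among the 20 forkhead genes under 5 kb, 7 (35.0%) had a start peak, beside 57.2% of protein-coding genes of that size. Among 9 members of 5 to 50 kb, 7 had one (77.8%), beside 75.9%. All 10 members of 50 kb or more had one (100%), beside 78.6%. Forkhead genes were short, with a median length of 4930 bases against 24170.5 over all protein-coding genes, and isolated, with a median of 14764 bases to the nearest protein-coding gene against 3416. The part of gene length and spacing in the counts above was not tested.

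Flanking peaks, the rows listed for a gene that are not start peaks, numbered 163 for the forkhead genes. The median was 2 per member, beside 1 per protein-coding gene (beyond 3000 bases, 1 in both), and 10 members had 0. Of the 163, 102 (62.6%) lay inside the gene, 33 (20.2%) upstream and 28 (17.2%) downstream. FOXP1 alone held 42, FOXK1 18, FOXN3 11, FOXQ1 10, FOXO3 9, and FOXN2 and FOXP2 8 each; FOXN1 was next with 6. The gene itself held 39 of the 42 of FOXP1, all 11 of FOXN3 and 7 of the 9 of FOXO3. Others lay more to the sides: FOXO1 had 3 of its 4 upstream and FOXP2 4 of its 8 downstream. At FOXQ1, 8 of 10 flanking peaks were upstream, the farthest 110873 bases from its start. FOXK1 had 7 upstream, out to 78811 bases, and 11 inside. The longest flanking peak of any member was 1779 bases (chr16:86584520-86586298), the only row of FOXL1, a gut mesenchyme factor. FOXP1 followed with an intronic peak of 1714 bases (chr3:71503636-71505349).

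**Figure D3:**
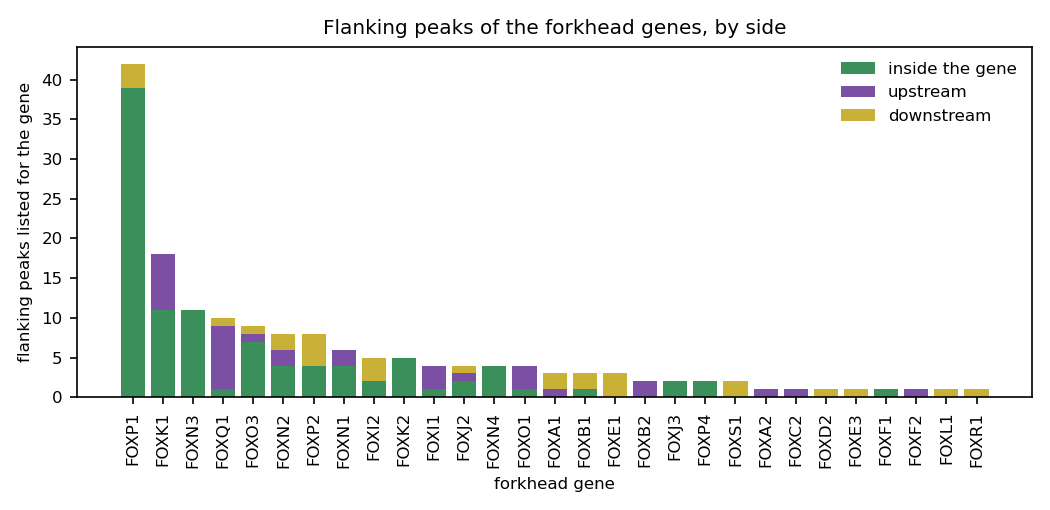
Number of flanking peaks listed for each forkhead gene that has any (y axis), stacked by side of the gene. FOXP1 reaches 42, nearly all inside the gene, and the FOXQ1 bar is mostly upstream.

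By annotation class, promoters took 36.2% of the 210 forkhead rows, introns 38.1% and distal intergenic sequence 21.9%, beside 30.4%, 34.1% and 29.6% in the whole list. Rows more than 50 kb from the listed start made up 4.29% of forkhead rows and 11.5% of the list. Flanking peaks had a median of 550 bases, beside 499 in the list. When peaks were counted by position instead, a median of 9 lay within 50 kb of a forkhead start, the same as for all protein-coding genes. The highest counts there were 17 at FOXF1 and FOXR1, and the lowest 3 at FOXB1, FOXD4, FOXJ3 and FOXP2.

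Inside the gene bodies lay 197 peaks, of which 148 were listed for the forkhead gene and 49 for another. For members of 50 kb or more the median was 0.867 peaks per 10 kb, beside 0.609 for all protein-coding genes of that length. FOXP1 held 51 over 629271 bases, with 10 in the first 100 kb, 3 from 200 to 300 kb, and 14 from 400 to 500 kb. A second long peak of FOXP1, 1757 bases (chr3:71063902-71065658), lay over an inner start, with its centre 519198 bases from the outermost one. FOXN3 held 38 over 462989 bases, but only 17 were listed for it and 21 for other identifiers. FOXP2, nearly as long as FOXP1 at 607439 bases, held 13. None of them lay beyond 500 kb, and the longest stretch without a peak ran 133995 bases. FOXK1, with 15 peaks over 89148 bases, was the densest of the long members at 1.68 per 10 kb, and FOXJ3, with 3 over 159333 bases, the sparsest at 0.19.

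**Figure D4:**
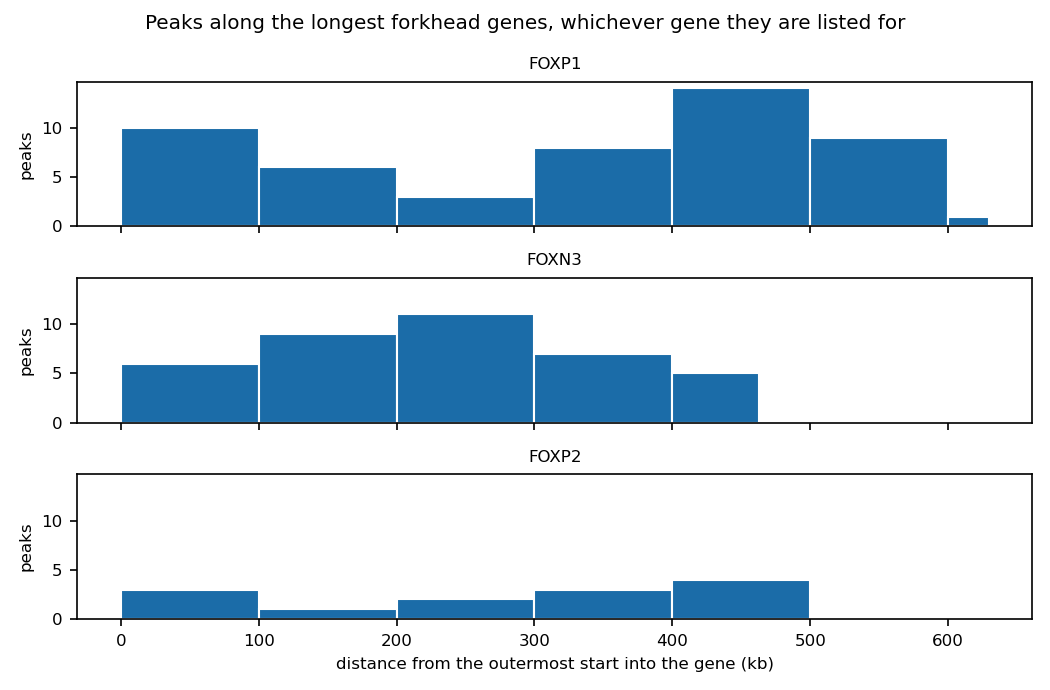
Peaks (y axis, count) in 100-kb steps from the outermost start into FOXP1, FOXN3 and FOXP2 (x axis, kb), whichever gene they are listed for; the last step of each gene is shorter. The highest FOXP1 bar, 14, is from 400 to 500 kb, while FOXP2 has at most 4 in any step.

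Several members sit in clusters. On chromosome 6, FOXQ1, FOXF2 and FOXC1 span 301800 bases that held 26 peaks, 86.1 per Mb beside 53.4 per Mb over chromosomes 1 to 22 and X. The latter figure covers whole chromosomes, near and far from genes. Within 50 kb of the start, FOXQ1 had 14 peaks, FOXF2 9 and FOXC1 6, beside a median of 9 over all protein-coding genes. The outer genes, FOXQ1 and FOXC1, had start peaks of 2282 and 2819 bases, and FOXF2 between them had none. The gap from FOXQ1 to FOXF2 held 8 peaks and that from FOXF2 to FOXC1 16, counting the FOXC1 start peak, which reaches into the gap. On chromosome 16, FOXF1, FOXC2 and FOXL1 span 72952 bases that held 9 peaks, 123 per Mb. Within 50 kb of the start, FOXF1 had 17 peaks, FOXC2 12 and FOXL1 11. None of these 3 genes had a start peak; 8 of the peaks lay between FOXF1 and FOXC2 and 0 between FOXC2 and FOXL1. An 851-base peak in that first gap stood over the start of MTHFSD. The FOXE3 and FOXD2 pair on chromosome 1, 19991 bases apart, held 2 peaks, and of the pair only FOXD2 had a start peak.

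**Figure D5:**
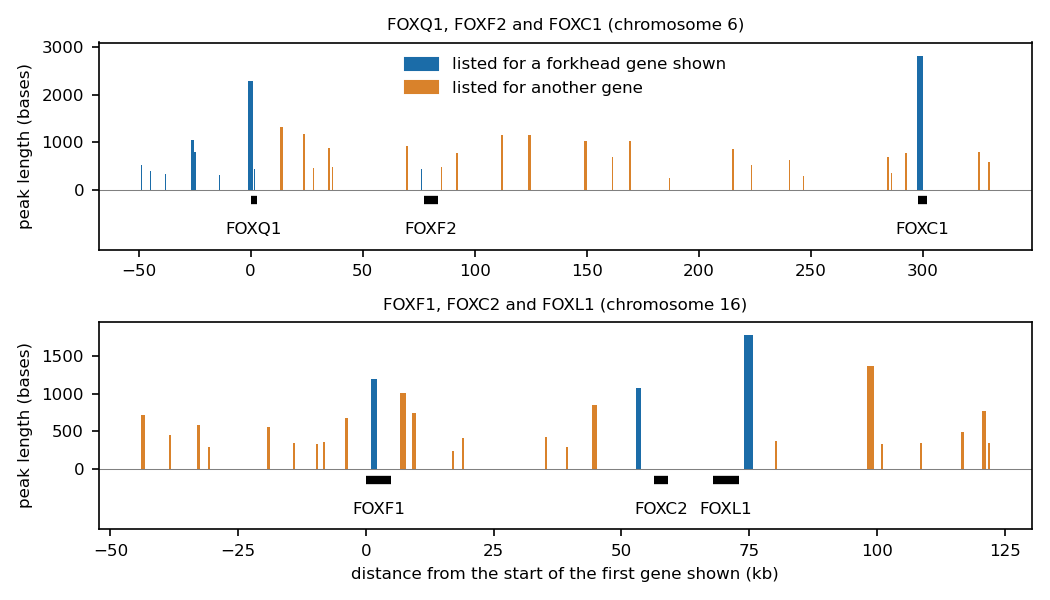
Peaks in and 50 kb around the forkhead clusters of chromosomes 6 and 16, at their distance from the first gene's start (x axis, kb), with bar height the peak length in bases and narrow peaks widened to be visible; black bars are the genes. The tall bars of chromosome 6 stand at FOXQ1 and FOXC1 and not at FOXF2, and no bar stands over the start of any chromosome 16 member.

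The genes that work with forkhead factors were read against the same 74.1%. Of the FOXO regulators, which carry PI3K and AKT signals, 14-3-3 proteins and acetylation to FOXO, 23 of 24 with a known strand had a start peak by position. That of PIK3CA, a catalytic subunit of PI3K, was 2376 bases long, while the kinase gene SGK1 lacked a peak at its outermost start but had a row of 1962 bases at an inner one. Among FOXO targets 16 of 18 had one, led by FBXO32 with 2217 bases, CCNG2 with 1990 and RBL2 with 1976. The cell cycle inhibitor CDKN1A and the muscle ubiquitin ligase TRIM63 had none at their outermost start. TRIM63 had a row of 455 bases at a listed start upstream of it. CDKN1A had no paired identifier, so rows at its other starts could not be looked up, and 1 peak lay inside the gene. All 21 FOXM1 partners and targets had one, led by PLK1 with 1833 bases, LIN9 with 1650 and RBBP4 with 1566. Of FOXA partners and targets in breast 8 of 10 had one, with TFAP2C at 2464 bases, TFAP2A at 1771 and XBP1 at 1652. The oestrogen receptor gene ESR1 had none at its outermost start, though rows at inner starts were listed for it. Of the FOXH1 pathway 4 of 6 had one, with SMAD2 at 2264 bases, and GSC and NODAL had none at their outermost start, NODAL having a row of 658 bases at an inner one.

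Markers of the cell line were checked in the same way. All 6 markers of mesenchymal triple-negative cells, among them VIM and CD44, had a start peak by position. So did 5 of 6 luminal markers, all but ESR1. The spans of KRT8 and KRT18 overlap, and both start peaks were 1436 bases long, so the same peak may count for both. No peak was found at the outermost start of 3 leukocyte markers (CD3E, CD79A and PTPRC) or of 2 endothelial markers (CDH5 and TEK). At inner starts the list held a row of 280 bases for PTPRC and of 729 bases for CDH5. For ESR1 it held rows of up to 1617 bases there. Copy number, which differs along the chromosomes of this aneuploid line, was not measured, and its part in these peak counts was not tested.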

How the data were processed

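Lysed MDA-MB-231 cells were tagmented and amplified, per the labels' protocols. The submitters' processing notes name Bowtie2 2.3.5.1, MACS2 2.2.6 and the build hg38, without their order or settings. Thresholds, duplicate handling, the Tn5 shift and how libraries were merged, which set peak number and length, are not stated in these sources. Per the file headers, the 17 columns of the deposited list hold peak positions, annotation classes, the transcript nearest to each peak and the distance between them. Depth and library values are not in it, so no test was made.

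Members and lists were chosen with earlier results of these data known. Identifiers were paired with RefSeq symbols (GRCh38.p14) where positions overlapped by at least 0.5 of their union, which matched 30 members, or, on the same strand, where starts lay within 1000 bases or the listed span lay inside the gene, which matched 2 (FOXB1 and FOXP4). The listed flanking genes matched 5 more. FOXD1 and FOXD4 were placed by RefSeq position only. Every member was named, with full values for the 8 longest start peaks, those without one and the 8 highest flanking counts. Some genes of the pathway lists are counted but not reported here by name. Other limits tried were 3000 bases, 10 and 100 kb, and peaks of 539 bases or more. Peak lookup was tested on simulated intervals. Python 3.11.15, numpy 2.4.6, pandas 2.3.3 and matplotlib 3.10.9 were used.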

Additional observations from a re-analysis of the deposited data

How the results depend on the processing

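The number of forkhead genes with a start peak was 20 by the listed gene, beside 68.4% of protein-coding genes. It was 17 when the peak had to cover the start (beside 61.2%), 20 among peaks of 539 bases or more (62.5%) and 24 by position (74.1%), all lower shares than over all genes. Within 3000 bases it was 29 (74.4% beside 73.3%) and, by position, a setting chosen after seeing the data, 35 (89.7% beside 82.1%), so the lower share did not hold at that distance. The median start peak length of 1782.5 bases by the listed gene became 1753 for peaks that cover the start, 2004 for the sum of all start peaks and 1624.5 for the nearest one. It was 1817 by position, also chosen after seeing the data, and under every one of these settings it was above the value for all protein-coding genes, 1228 to 1446 bases. The median of 2 flanking peaks, beside 1 over all genes, stayed at 2 beside 1 within 50 kb. It became 1 beside 0 for peaks of 539 bases or more and, for genes with a row, also chosen after seeing the data, 3 beside 2. Beyond 3000 bases it was 1 in both sets, so the difference did not hold there. The median of 9 peaks within 50 kb, beside 9 over all genes, became 2 within 10 kb (beside 2) and 18 within 100 kb (beside 17). For peaks of 539 bases or more it was 5, beside 5. Why differences from all genes changed with the setting was not tested. No paired analysis was possible because libraries are merged in 1 peak list. Depth is unknown, so closed chromatin and weak coverage cannot be told apart where no peak is listed.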
